A study of Mus musculus with 6 samples.

Results

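The Toll-like receptors are the family of membrane receptors with which macrophages sense microbial lipids, proteins and nucleic acids, and their messenger RNA was examined in macrophages grown from the marrow of mice exposed to cigarette smoke or to room air. The members are 10 genes chosen by symbol: Tlr1, Tlr2, Tlr4, Tlr5 and Tlr6, whose products work at the cell surface, and Tlr3, Tlr7, Tlr8, Tlr9 and Tlr13, whose products work in endosomes. All 10 were listed among the 19386 genes of the authors' deposited table, and all 10 carried an adjusted p-value, as 12082 genes in all did. Splicing events in these genes were added, 6 of the 10376 in the authors' JuncBASE table and 3 of the 3887 retained introns in their rMATS table.

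The 6 libraries came from bone marrow-derived macrophages of wild-type C57BL/6 mice, 3 from mice kept in room air and 3 from mice exposed to cigarette smoke, and no other difference between the groups is given. Marrow cells freed of erythrocytes were cultured with L929 cell supernatant, which supplies the growth factor for macrophage differentiation, and harvested on day 11. The protocol speaks of cells taken from each mouse, but does not say that each library is a separate mouse. The p-values for splicing therefore measure only the spread between these 6 libraries, and those for expression that of the 24 libraries taken to enter the authors' fit. Sex, age and the length of exposure are not given in the sources used here.

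Each receptor binds its ligand with an outer domain of leucine-rich repeats and signals through an inner domain shared with the interleukin 1 receptors. The adaptor MyD88 serves nearly the whole family, Tlr3 signals through TRIF, and Tlr4 can use both. The endosomal receptors are escorted from the endoplasmic reticulum by UNC93B1 and are cut by endosomal proteases before they signal. In macrophages the pathway ends in NF-kappaB and interferon regulatory factors, which switch on cytokine genes.

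Expression is given by group, as normalized counts averaged over 3 libraries after scaling by size factors, and as the authors' log2 fold change of cigarette smoke over room air with its standard error. All group means and fold changes of genes are those of the authors' deposited table, and values after removal of a trend are computed from it. No value of a single library was used for expression, so whether the groups overlap cannot be told, and the depth of the libraries is unknown. In bulk RNA, fewer cells of a type and less RNA per cell cannot be told apart. Macrophage markers were abundant in both groups: the 7 genes of that list summed to 49663 normalized counts in room air and 50909 after smoke, and none passed the test. Markers of neutrophils and B cells were near 0 where listed, with sums of 0.200 and 0.195 over 2 of 7 neutrophil genes and 6.31 and 4.14 over 3 of 5 B cell genes. Of 4 T cell markers 1 was listed, at 2.78 and 4.08. Of 5 markers of plasmacytoid dendritic cells, which use Tlr7 and Tlr9, 2 were listed: Siglech at 0.767 normalized counts in room air and 0 after smoke, and Tcf4 at 999 and 731. The 5 stromal markers summed to 44.5 in room air and 7.78 after smoke. The part of these lists in the receptor values was not tested.

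Of the 10 receptors, Tlr8 fell after cigarette smoke and no other passed the test. Tlr8, an endosomal sensor of RNA breakdown products, went from 867 to 498 normalized counts, 57.4% of its room air level. This call was lost (adjusted p 0.225) once a trend of the fold changes with GC content and length was removed. The other receptors had fitted log2 fold changes between -0.61 and 0.28. The count of 1 of 10 (10.0%) stands beside 7.69% of all genes tested that passed an adjusted p of 0.05 in either direction and 3.53% that passed it downward, so the share called among the receptors is near the background. At an adjusted p of 0.01 no receptor was called, beside 3.03% of all genes, and at 0.1 Tlr8 and Tlr3 were, beside 12.8%. With p-values adjusted over genes with a mean of 50 or more, or with no filter on low means, Tlr8 alone was called, beside 10.1% and 3.55% of the genes. The first of these settings leaves out Tlr5. By sign alone, 9 of 10 receptors had a log2 fold change below 0 in the authors' deposited table, against 50.3% of all genes tested. The median over the 10 was -0.388, against -0.00285 over all genes tested.

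**Figure D1:**
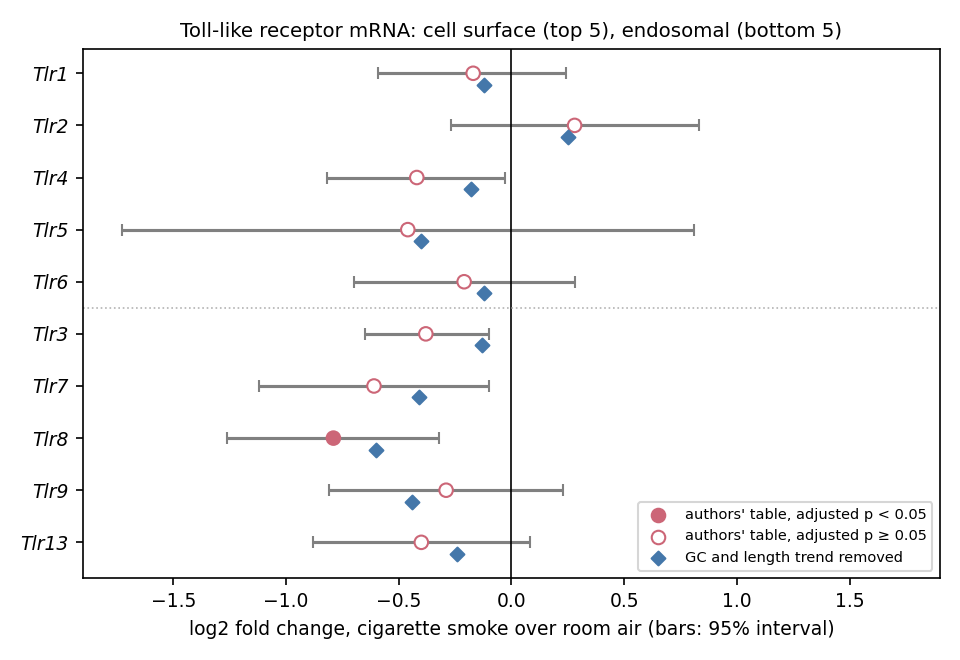
Log2 fold change of each receptor's mRNA, cigarette smoke over room air, on the x axis, with 1 row per gene. Circles are the authors' values with 95% intervals from their standard errors, filled where the adjusted p was under 0.05, and diamonds are the values after a trend with GC content and transcript length was removed. The 5 endosomal receptors all lie left of 0, and Tlr8 at -0.79 is the filled circle.

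Among the 5 endosomal receptors, each of which senses nucleic acid, the log2 fold changes ran from -0.792 to -0.290 with a median of -0.400. Of all genes tested, 50.3% lay below 0. The 1 call among the 5 (20.0%) stands beside 7.69% of all genes in either direction and 3.53% downward. Tlr8 (ENSMUSG00000040522.5, GRCm38 chromosome X, 167242696 to 167264329, minus strand) was fitted at a log2 fold change of -0.79 in the authors' deposited table (SE 0.24, 95% interval -1.26 to -0.32, DESeq2 adjusted p 0.0212). Its neighbour Tlr7, a sensor of single-stranded RNA (ENSMUSG00000044583.13, chromosome X, 167304929 to 167330558, minus strand), lies next to it, with 40599 bases between the annotated ends of the genes. Tlr7 had means of 2944 and 1924 normalized counts and a log2 fold change of -0.61 (SE 0.26, 95% interval -1.12 to -0.10) in the authors' deposited table. Its unadjusted p was 0.0190 and its DESeq2 adjusted p 0.128. Both estimates point down, and the difference between the 2 genes was not tested.

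The upstream region of Tlr8 is shown because it is the receptor that passed the authors' test. It holds the 250 bases before the start of the RefSeq gene on GRCm38.p6, minus strand, chromosome X, 167264330 to 167264579, and capitals mark matches to searched motifs.
Tlr8 upstream: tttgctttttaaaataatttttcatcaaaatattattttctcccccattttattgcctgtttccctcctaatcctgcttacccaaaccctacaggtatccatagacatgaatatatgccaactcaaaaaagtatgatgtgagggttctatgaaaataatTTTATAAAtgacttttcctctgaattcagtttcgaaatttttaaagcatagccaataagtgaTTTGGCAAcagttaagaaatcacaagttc
The search took 7 motifs on both strands, and RefSeq promoters matched 8 of the 10 receptors. The capitals are a TATA motif (TATAAA), matched on both strands at overlapping positions 91 and 89 bases before the start, and a C/EBP motif (TTGCNNAA) 29 bases before it. Of all 32851 promoters in the table, 12.4% and 9.56% held these letters in the same window. The TATA letters were also found upstream of Tlr6, and those for C/EBP upstream of Tlr3 and Tlr6. A match is a description of letters, not a binding site. The letters searched for NF-kappaB (GGGA, any 4 bases, then CC, in 17.6% of all promoters) were found upstream of Tlr2, Tlr3 and Tlr5, and those for ISRE (GAAA, any 2 bases, then GAAA, 2.98%) upstream of Tlr6. PU.1 (GAGGAAGT, 2.44%) matched upstream of Tlr1, AP-1 (TGANTCA, 6.75%) upstream of Tlr9, and the xenobiotic response element (GCGTG, 28.2%) upstream of none of the 8.

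Tlr3, the sensor of double-stranded RNA (ENSMUSG00000031639.12, chromosome 8, 45395665 to 45411080, minus strand), had means of 237 and 185 normalized counts. Its log2 fold change of -0.38 had the smallest standard error of the 10 receptors, 0.14, and its DESeq2 adjusted p was 0.0729 in the authors' deposited table. The antisense gene Gm45542 overlaps it. The library kit keeps strand, but whether the counting used it is not given in the sources used here, so reads of the pair may not have been separated.

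Tlr13, a sensor of bacterial ribosomal RNA (ENSMUSG00000033777.4, chromosome X, 106143204 to 106160493, plus strand), had means of 2144 and 1624 normalized counts, a log2 fold change of -0.40 (SE 0.25) and a DESeq2 adjusted p of 0.335, as the authors' deposited table gives them. Tlr9, which senses DNA with unmethylated CpG (ENSMUSG00000045322.10, chromosome 9, 106222598 to 106226883, plus strand), had means of 325 and 263, a log2 fold change of -0.29 (SE 0.26) and a DESeq2 adjusted p of 0.564 in that table. The intervals of both include 0, with upper bounds of 0.08 for Tlr13 and 0.23 for Tlr9.

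Tlr7, Tlr8 and Tlr13 lie on the X chromosome. Over the 389 X-linked genes tested the median log2 fold change was -0.104, 63.0% lay below 0 and 5.66% were called lower, against 50.3% and 3.53% of all genes tested. Xist, the RNA that silences an X chromosome in females, had means of 1162 in room air and 672 after smoke, and the Y-linked Ddx3y 324 and 234, so both groups held RNA with marks of both sexes. Their log2 fold changes of -0.79 and -0.47 had standard errors of 2.70 and 2.45 in the authors' deposited table. How the sexes were spread over the libraries is not given, and its part in the values of the 3 X-linked receptors was not tested.

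None of the 5 cell-surface receptors passed the test, beside 7.69% of all genes tested. Tlr4, the lipopolysaccharide receptor (ENSMUSG00000039005.13, chromosome 4, 66827584 to 66930284, plus strand), had means of 1009 and 749 normalized counts and a log2 fold change of -0.42 (SE 0.20, 95% interval -0.82 to -0.03) in the authors' deposited table. Its unadjusted p was 0.0349 and its DESeq2 adjusted p 0.179. Tlr2, the shared partner for bacterial lipopeptides (ENSMUSG00000027995.10, chromosome 3, 83836272 to 83841767, minus strand), was the receptor with a positive estimate, with means of 560 and 677, a log2 fold change of 0.28 (SE 0.28, 95% interval -0.27 to 0.83) and a DESeq2 adjusted p of 0.602 in that table.

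The partners of Tlr2 had small estimates. Tlr1, which pairs with Tlr2 on triacylated lipopeptides (ENSMUSG00000044827.10, chromosome 5, 64924679 to 64933563, minus strand), had means of 283 and 247 normalized counts and a log2 fold change of -0.17 (SE 0.21). Tlr6, which pairs with Tlr2 on diacylated lipopeptides (ENSMUSG00000051498.6, chromosome 5, 64952031 to 64960097, minus strand), lies 18467 bases from Tlr1 and had means of 111 and 93.9 and a log2 fold change of -0.21 (SE 0.25). Tlr5, the flagellin receptor (ENSMUSG00000079164.8, chromosome 1, 182954788 to 182976044, plus strand), had means of 29.1 and 22.1 and a log2 fold change of -0.46, with the widest interval of the 10, -1.73 to 0.81. The DESeq2 adjusted p-values of Tlr1, Tlr6 and Tlr5 in the authors' deposited table were 0.689, 0.681 and 0.735. At these standard errors a fall of the size fitted for Tlr8 lies inside the intervals of Tlr4 and Tlr5 and outside those of Tlr1, Tlr2 and Tlr6.

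Of the family's other members in mice, Tlr11 had a mean of 0 normalized counts in room air and 0.606 after smoke and no adjusted p, and Tlr12 was not among the genes listed in the table.

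The fold changes of this table follow the GC content and length of the transcripts over all genes, and the values of the receptors were set against that trend. Medians were 43.2% GC and 6259 nucleotides among genes called lower, against 54.8% and 1835 among genes called higher. The longest transcripts of the receptors had GC contents from 39.4% for Tlr4 to 56.2% for Tlr9 and lengths from 3014 nucleotides for Tlr2 to 4407 for Tlr3. Tlr8, with 40.1% and 3431 nucleotides, is on the low side in GC content.

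At the GC content and length of Tlr8 the trend over 12071 genes gave a log2 fold change of -0.19. The remainder was -0.60, with an unadjusted p of 0.0118 and an adjusted p of 0.225, so the call was lost. No receptor passed the threshold once the trend was removed, beside 1.27% of all genes. The remainders were -0.41 for Tlr7, -0.44 for Tlr9, -0.40 for Tlr5, -0.24 for Tlr13, -0.18 for Tlr4, -0.13 for Tlr3, -0.12 for Tlr1 and Tlr6, and 0.25 for Tlr2. The signs of all 10 were kept, so 9 of 10 lay below 0, beside 52.5% of all genes. The value of Tlr3 moved from -0.38 to -0.13.

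The receptors differed far more between genes than between groups. Levels of different genes were compared per length, as group means divided by the length of the union of a gene's exons. In room air Tlr7 stood first at 721 normalized counts per kilobase, followed by Tlr13 at 498, Tlr8 at 242, Tlr2 at 186 and Tlr4 at 182. Tlr9 and Tlr1 followed at 93.4 and 84.4, then Tlr3 at 45.5, Tlr6 at 29.7 and Tlr5 at 6.08. On this scale Tlr7 stood at the 98.3rd percentile of all genes tested and Tlr5 at the 11.0th.

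After smoke the order was the same except that Tlr2, at 225 normalized counts per kilobase, stood above Tlr8 at 139. Tlr4 was at 135, next to Tlr8. The spread over libraries is not known for these levels, so neighbours such as Tlr2 and Tlr4 in room air, or Tlr8 and Tlr4 after smoke, cannot be said to differ. With the longest transcript as the length, Tlr4 stood above Tlr2 in room air (247 against 186) and Tlr1 and Tlr9 were level at 93.4. After smoke, Tlr4 at 184 then also stood above Tlr8 at 145.

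**Figure D2:**
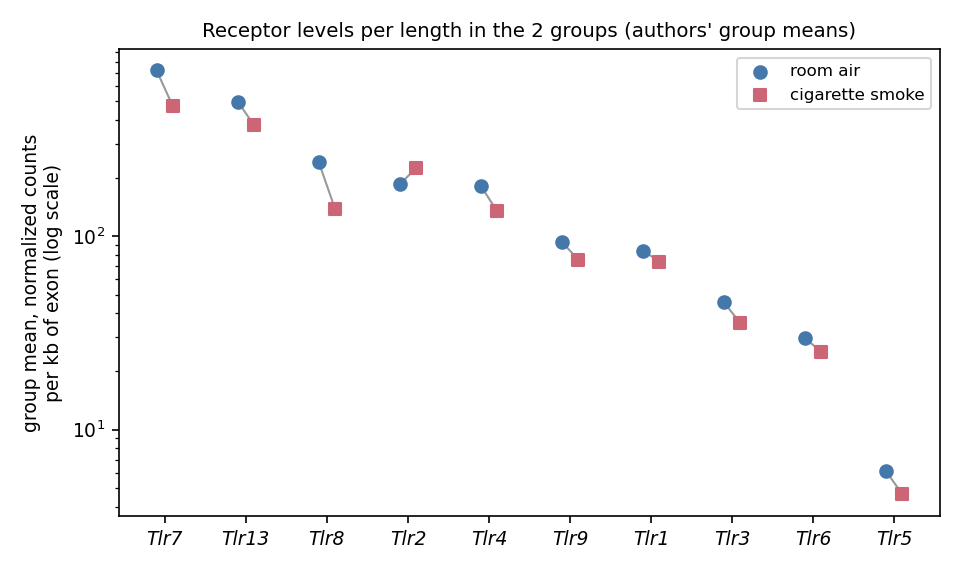
Group mean of each receptor in normalized counts per kilobase of exon (y axis, log scale), ordered by the room air level, with a circle for room air and a square for cigarette smoke. Tlr7 and Tlr13 lead in both groups, Tlr2 is the receptor whose square lies above its circle, and Tlr5 lies lowest at 6.08 and 4.62.

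Splicing within the receptor genes was measured in each library, as the percent of junction or exon reads that include a stretch of sequence. The 6 JuncBASE events fell in 4 genes, with 3 in Tlr7 and 1 each in Tlr2, Tlr4 and Tlr9. None passed the test: limma on log2 odds of inclusion gave adjusted p-values from 0.526 to 0.914 and no event with an unadjusted p under 0.05, beside 0% and 10.8% of all events. In none of the 6 did the values of the groups separate, beside 22.8% of all events. That share includes events with missing values, which separate more easily. Of all 10376 events, 5933 had values in all 6 libraries.

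The Tlr7 exon was the event with an intermediate level. It is an annotated exon of 68 bases (chromosome X, 167308789 to 167308856, minus strand) that lies before the long coding exon and ends in a start codon. Without it, the exon joined in its place also ends in a start codon, so that both junctions lead into the same annotated coding sequence. The 15 bases on each side of the junctions, from the GENCODE M21 transcripts, are shown for that reason, with the start codon in capitals.
Tlr7 exon skipped: agaaaactgaaaATGgtgttttcgatgtgg
Tlr7 exon included: cacaatcacgtcATGgtgttttcgatgtgg
In order of replicate number, inclusion of this exon was 12.77%, 13.11% and 15.54% in room air. After smoke it was 26.92%, 16.67% and 12.43%. The smoke values lie on both sides of the room air values, and the exon was mostly skipped in every library. The room air mean was 13.8% ± 1.51 (SD, n = 3), and that after smoke lay 4.87 percentage points above it at 18.7% ± 7.45 (SD, n = 3). The limma adjusted p was 0.690. An exact permutation test, two-sided, gave p = 0.400, where 3 libraries against 3 allow no value under 0.10.

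Both other Tlr7 events describe the same pair of acceptors, 22 bases apart, at the start of the second exon (chromosome X, 167330078 to 167330099), of which the inner acceptor is not annotated. With exon reads counted, use of the annotated acceptor was 97.06%, 97.33% and 98.08% in room air and 100%, 88.24% and 95.45% after smoke. By junction reads alone it was 98.51%, 98.66% and 99.02% in room air and 100%, 93.33% and 97.64% after smoke. The room air values lie within the range of the smoke values in each, and the limma adjusted p-values were 0.903 and 0.821.

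The Tlr4 exon is a coding exon of 167 bases (chromosome 4, 66833894 to 66834060, plus strand), a length that is not a multiple of a codon, so its loss shifts the reading frame. It is shown in capitals between 15 bases of each neighbouring exon.
Tlr4 exon: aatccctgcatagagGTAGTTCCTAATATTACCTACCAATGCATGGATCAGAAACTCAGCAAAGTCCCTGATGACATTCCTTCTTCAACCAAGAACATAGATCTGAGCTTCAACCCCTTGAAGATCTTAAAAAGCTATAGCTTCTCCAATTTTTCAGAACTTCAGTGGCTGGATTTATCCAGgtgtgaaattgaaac
Inclusion was 100%, 96.88% and 100% in room air and 100%, 100% and 94.03% after smoke, so skipping was seen in a single library of each group. The means were 99.0% ± 1.80 (SD, n = 3) and 98.0% ± 3.45 (SD, n = 3), with a limma adjusted p of 0.914.

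In Tlr9 a junction not in the annotation joins the first exon to an acceptor 175 bases inside the coding exon (chromosome 9, 106223515 to 106223689, plus strand). The first exon ends in the start codon, in capitals here, and the inner junction leaves out the 175 bases after it, a length that is not a multiple of a codon.
Tlr9 annotated acceptor: ccatctcccaacATGgttctccgtcgaagg
Tlr9 inner acceptor: ccatctcccaacATGcatcctgctccaaca
Use of the annotated acceptor was 100%, 98.46% and 100% in room air and 100%, 91.67% and 100% after smoke, with a limma adjusted p of 0.768. The inner acceptor was thus used in 1 library of each group.

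In Tlr2 the alternative acceptor lies 158 bases inside the exon before the coding exon (chromosome 3, 83840979 to 83841136, minus strand), upstream of the coding sequence. Use of the annotated acceptor was 100%, 96.3% and 91.3% in room air and 100% in cigarette smoke replicates 2 and 3. Replicate 1 had no value. The difference of 4.13 percentage points had a limma adjusted p of 0.526, and room air replicate 1 equals the smoke values.

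**Figure D3:**
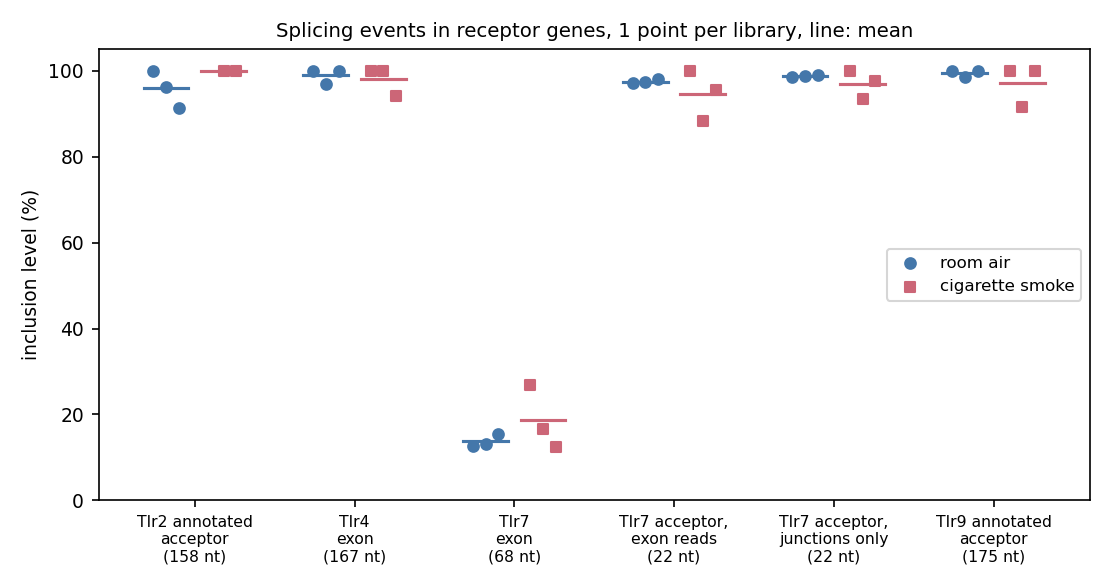
Inclusion level in percent (y axis) of the 6 splicing events in receptor genes, with 1 point per library, circles for room air and squares for cigarette smoke, and a line at the group mean. The Tlr7 exon lies between 12.43% and 26.92% and the other events above 88%, with overlapping groups in each.

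The authors' deposited rMATS table held 3 introns in the receptor genes, and none had a false discovery rate under 0.05, beside 14.5% of all introns. The Tlr2 intron between the exon before the coding exon and the coding exon itself (chromosome 3, 83838790 to 83840888) had a difference of -1.1 percentage points there, with a false discovery rate of 0.550. The Tlr3 intron between its last coding exons (chromosome 8, 45397142 to 45397369), of 228 bases, had 2.9 points with a rate of 0.580, and that of Tlr8 -1.4 points with 0.680. These values subtract sample set 2 from sample set 1, and the table does not say which group each set is.

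The Tlr8 intron (chromosome X, 167244981 to 167245668, minus strand) lies inside the long coding exon and is removed in an annotated transcript that has no coding sequence. Its ends, from the GENCODE M21 transcript that keeps it, are shown with the terminal bases in capitals.
Tlr8 intron start: GCaagtatgtgacaaacatagacttgtcag
Tlr8 intron end: cacccaacttctctatctaaacctttccAG
It begins with GC where most introns begin with GT, and its 688 bases are not a multiple of a codon.

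The genes that serve the receptors were counted by role in a list of 70, of which 68 carried an adjusted p. Of these, 6 rose and 1 fell in the authors' deposited table (10.3% called), beside 7.69% of all genes tested, of which 4.15% were called higher. The median log2 fold change was 0.107 over the 68, against -0.00285 over all genes tested. Once the trend with GC content and length was removed, 2 of the 68 were called, beside 1.27% of all genes.

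No co-receptor, trafficking factor, endosomal protease or adaptor passed the test (0 of 5, 7, 5 and 4), beside 7.69% of all genes tested. Cd14, which hands lipopolysaccharide to Tlr4, had means of 3027 and 3712 normalized counts (log2 fold change 0.29, SE 0.23), and Cd180, a relative of Tlr4 without a signalling domain, had 2577 and 1936 (log2 fold change -0.41, SE 0.16, DESeq2 adjusted p 0.0921 in the authors' deposited table). Unc93b1, which carries the endosomal receptors to their compartment, had 2210 and 2538 (0.20, SE 0.18). The receptor chaperone Hsp90b1 had 4064 and 3158 (-0.36, SE 0.13, DESeq2 adjusted p 0.0696 in the authors' deposited table). Other genes also overlap Cd180, Hsp90b1, Ctsb, Ctss, Myd88, Ripk1, Irf7 and Cyld on their own or the other strand, so their counts are uncertain in the same way. The proteases Ctsb and Ctss, cathepsins B and S, had log2 fold changes of 0.13 and 0.09, and the adaptors Myd88 and Ticam1 (TRIF) 0.32 and 0.22.

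Among 16 kinases and ligases 1 rose and 1 fell (12.5% called), beside 7.69% of all genes tested. Irak2, a kinase that joins the MyD88 complex, rose from 239 to 340 normalized counts (log2 fold change 0.52, SE 0.17, DESeq2 adjusted p 0.0348 in the authors' deposited table), although Gm43912 overlaps it on its strand and Gm43963 and Gm43964 on the other, so its reads are uncertain. Map3k7, the kinase TAK1, fell from 498 to 405 (-0.31, SE 0.10, DESeq2 adjusted p 0.0369 in that table). Tab2, a partner of TAK1, and Ripk1 had -0.15 and -0.22. The antisense genes Gm11926 and Gm26254 overlap Map3k7, with the same limit on strand as for Tlr3. The calls of Irak2 and Map3k7 were lost after the trend was removed, with remainders of 0.41 (adjusted p 0.243) and -0.10 (adjusted p 0.811), and also with no filter on low means, with 0.0550 and 0.0582.

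Of 9 transcription factors 1 rose (11.1%), beside 4.15% of all genes tested called higher. This was Spi1, which encodes the myeloid factor PU.1, from 1146 to 1526 normalized counts (log2 fold change 0.41, SE 0.11, DESeq2 adjusted p 0.00813 in the authors' deposited table). Its remainder after the trend was 0.09 (adjusted p 0.856). Irf7, an interferon regulatory factor downstream of the endosomal receptors, had 0.11. Of 10 inhibitors 1 rose (10.0%), beside the same 4.15% of all genes. This was Nfkbia, the NF-kappaB inhibitor, from 257 to 375 (0.56, SE 0.15, DESeq2 adjusted p 0.00967 in the authors' deposited table), with a remainder of 0.33 (adjusted p 0.368) after the trend was removed. Tollip and Cyld had 0.12 and -0.24.

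The 12 target cytokines and enzymes had the highest median of the roles, 1.77. Of them 11 lay above 0, where 50.3% of all genes tested lay below 0. The test called 3, all higher, beside 4.15% of all genes called higher. The median lies between Cxcl10 (log2 fold change 1.66) and Il12b (1.88). Neither passed the test, with DESeq2 adjusted p-values of 0.178 and 0.211 in the authors' deposited table. The 11 include genes with low means: Il12b (4.88 and 18.3 normalized counts), Il6 (3.39 and 19.9) and Ifnb1 (0.200 and 0.698, SE 1.74). Il10, which lay below 0, had 9.89 and 10.7. Ptgs2, cyclooxygenase-2, rose from 42.5 to 301 normalized counts (log2 fold change 2.83, SE 0.60, DESeq2 adjusted p 0.000500 in the authors' deposited table). Nos2, the inducible nitric oxide synthase, rose from 15.7 to 107 (2.78, SE 0.73, DESeq2 adjusted p 0.00603 in that table). Il1b, interleukin 1 beta, rose from 17.5 to 69.3 (1.99, SE 0.58, DESeq2 adjusted p 0.0148 in that table), and the antisense gene Il1bos overlaps it. Tnf went from 148 to 318 normalized counts and Ccl3 from 630 to 1050, with DESeq2 adjusted p-values of 0.177 and 0.273 in that table. After the trend was removed, Ptgs2 and Nos2 were the 2 genes of the list still called (adjusted p 0.000334 and 0.0237), and Il1b had a remainder of 1.88 with an adjusted p of 0.0672. These target genes were chosen with their earlier results known, so their direction is not independent evidence.

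**Figure D4:**
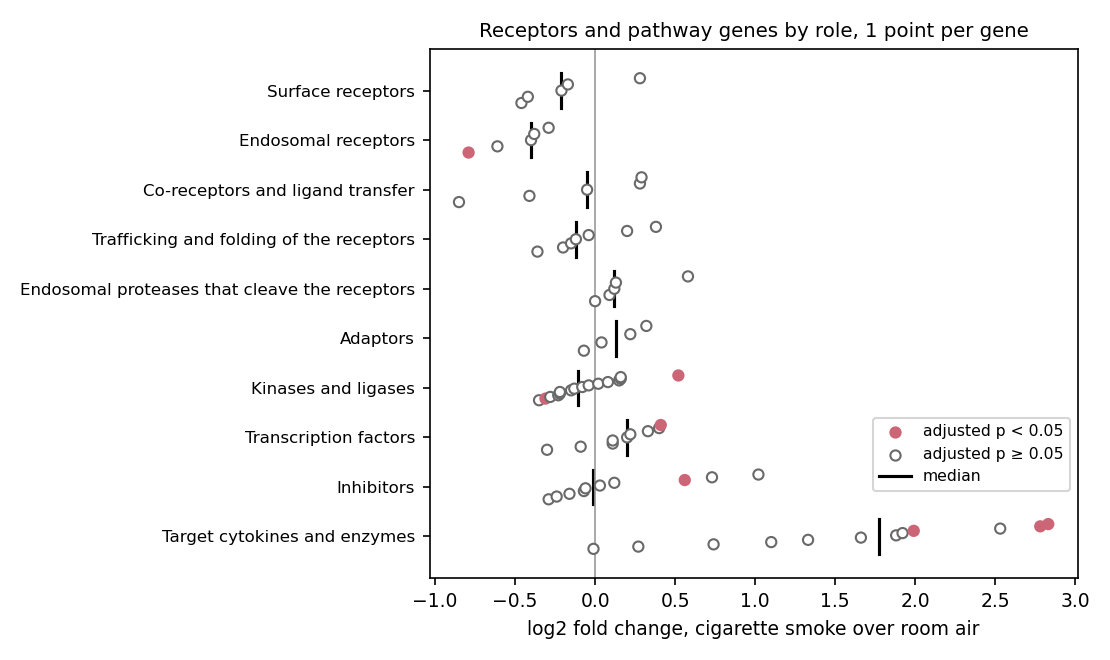
Log2 fold change of cigarette smoke over room air (x axis) for the receptors and for the pathway genes by role, with 1 point per gene, filled where the adjusted p was under 0.05, and a vertical line at each median. The median of the endosomal receptors is -0.400 and that of the target cytokines and enzymes 1.77.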

How the data were processed

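RNA of 6 macrophage libraries was read after a directional library preparation. The submitters' processing notes name STAR, DESeq2, SAMtools 1.9, bedtools 2.27.1 and mm10. The DESeq2 gene table that the authors deposited holds signal values: counts scaled by size factors and averaged per group and, per the file headers, over 24 libraries, 18 more than the samples used here. That table also holds the authors' log2 fold change and standard error, their ratio as a Wald score, and p-values, all taken to come from a fit of those 24, whose spread the standard errors then share. Genes with a 24-library mean of at most 8.52 had no adjusted p. JuncBASE levels were deposited by the authors as percent inclusion per library, and rMATS differences as fractions. The 6 rMATS columns of per-sample values were not used because the groups of their sets are not stated.

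No counts per library were used. For expression the authors' own test is therefore described, with a threshold of 0.05 on its adjusted p. 95% intervals are 1.96 standard errors either way. Inclusion levels were compared over all 10376 events with limma 3.58.1 in R 4.3.3 on log2((p + 1)/(100 - p + 1)), Benjamini-Hochberg adjusted. Tested on simulated levels of 10376 events, this recovered 14.5% of 200 changes of 4 log2 odds, so smaller changes were mostly not detectable. Coverage of events is unknown. The trend with GC content and log2 length was fitted with natural splines (4 degrees of freedom, weights of the inverse squared standard error; statsmodels 0.14.6, patsy 1.0.2). Tested on simulated data of 12071 genes, it recovered 89.0% of 200 changes of 2 on the log2 scale and called 12 unchanged genes, against 1845 before. The simulated trend was a straight line in GC content, without length. The changes put in were larger than that of Tlr8, so the share of smaller changes kept is not known. Positions, lengths and exons are from GENCODE M21 on GRCm38, and 98.6% of 6001 known JuncBASE events had exclusion junctions identical to its introns. Promoters are from RefSeq on GRCm38.p6.

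The members, the pathway list and the tests were chosen with earlier results of these data known. The genes named are the 10 receptors, Tlr11 and Tlr12, every pathway gene past the threshold and the 2 of each role with the highest mean. Cxcl10, Il12b, Il6, Ifnb1 and Il10 are named besides, to show what the median of the target genes rests on.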

Additional observations from a re-analysis of the deposited data

Results flagged for a closer look

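The gene table averages over 24 libraries, and the 18 outside the 2 groups were not analysed here one by one. From the 24-library mean and both group means, the mean over those 18 follows. For 4 receptors it was at least 2-fold above the room air mean: 5656 normalized counts for Tlr2 (10.1 times the room air mean of 560), 2319 for Tlr3 (9.79 times 237), 1168 for Tlr1 (4.13 times 283) and 255 for Tlr6 (2.30 times 111). Tlr4 and Tlr13 lay lower there, at 459 and 1016, which is 0.455 and 0.474 times their room air means. Tlr7 and Tlr8 were also lower, at 0.679 and 0.891 times, and Tlr5 and Tlr9 were at 1.20 and 1.28 times. What those libraries were treated with is not given in the sources used here, and the difference was not tested.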

How the results depend on the processing

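The count of receptors past the threshold was 1 in the authors' table, 0 at an adjusted p of 0.01, 2 at 0.1 (Tlr8 and Tlr3) and 0 once the trend with GC content and length was removed. It stayed at 1 with p-values adjusted over genes whose mean reached 50 and with no filter on low means, where Tlr8 had adjusted p-values of 0.0176 and 0.0337. Of the pathway genes 7 were called, beside 7.69% of all genes. The counts were 4 at 0.01 (3.03% of all genes), 11 at 0.1 (12.8%), 2 without the trend (1.27%), 7 over genes with a mean of 50 or more (10.1%) and 5 with no filter (3.55%), where Irak2 and Map3k7 were lost. The setting with a mean of 50 or more leaves out Tlr5 and the pathway genes below that mean. Thresholds and p-value adjustments leave the fold changes as they are, so no sign could turn there. Scaling group means to the same total or centring them on the median ratio only took log2 ratios of -0.03 and -0.01 out. Both are smaller in size than any receptor's fold change, so these settings could not turn a sign either. With the trend removed, where signs could turn, all receptors kept theirs. Tlr8 lay between -0.79 and -0.60. No expression result could be recomputed without a library.

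For splicing, no receptor event was called under any alternative run, with a lowest adjusted p of 0.299. All 6 were tested except among events with values in all 6 libraries, which leaves out the Tlr2 event. Over all 10376 events the count went from 0 to 241 with a pseudocount of 0.1, 23 among events with values in all 6 libraries, 5 on untransformed percentages and 1131 without cigarette smoke replicate 3. In the other runs it stayed at 0, so the lack of a call there says nothing particular about the receptor events. Leaving out a library in turn moved the log2 odds difference across 0 for the Tlr4 exon (-0.96 to 0.70), the Tlr7 acceptors with exon reads (-1.36 to 0.57) and by junctions (-1.22 to 0.30), and the Tlr9 acceptor (-1.22 to 0.46), but not for the Tlr7 exon (0.07 to 0.73). For the Tlr7 exon the lowest value, 0.07, was the one without cigarette smoke replicate 1. The Tlr2 acceptor ranged from 1.14 to 2.85, but its 2 smoke values are both 100%, so its sign could not turn, and without replicate 2 or 3 the smoke group is 1 library, assumed to vary like room air. A pseudocount of 0.1 percentage points turned both Tlr7 acceptor events to 0.50 and 0.16. Same-numbered libraries did not deviate together (r of 0.018, -0.040 and -0.089). With the replicate block 0 of 6 events were called, beside 0 of all 10376, with a lowest limma adjusted p of 0.609 among the 6. Cigarette smoke replicate 1 had no value in 4169 of 10376 events, the most of any library. The order of levels per kilobase in room air had a Spearman rho of 0.98 between both choices of length.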

Other observations

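Each receptor gene was covered by a single assembled locus of the authors' merged annotation, with Tlr1 and Tlr6 kept apart, and likewise Tlr7 and Tlr8. The number of assembled transcripts ran from 2 for Tlr9 to 16 for Tlr7 and Tlr8. In the authors' JuncBASE table the Tlr9 event stands under another locus name than the locus that covers Tlr9 in the merged annotation, and it was assigned to Tlr9 here by its coordinates and strand.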
